A study of Mus musculus with 6 samples.

Results

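The nuclear-encoded subunits of the mitochondrial respiratory chain and of ATP synthase were examined in mouse colonic organoids. They were matched by gene symbol, and the families were chosen with earlier results of these data known. Matched were the numbered Nduf subunits of complex I, Sdha to Sdhd of complex II, and the Uqcr genes and Cyc1 of complex III. The Cox4 to Cox8 genes of complex IV and the Atp5 genes of ATP synthase were matched as well. Of the 25067 rows, 101 matched, of which 42 named complex I, 4 complex II, 9 complex III, 17 complex IV and 17 ATP synthase, and 12 were pseudogenes with -ps in their names. A mean normalised count of at least 10 was reached by 82 of the 101 rows, and these were tested. The other 19 were 10 pseudogenes and 9 genes whose values stayed at or under 8.47 in every library. The complex I assembly factors, whose symbols begin with Ndufaf, are described apart.

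RNA was sequenced in 6 libraries of organoids grown from colon crypts of C57BL/6 mice 8 weeks old. The genotype of all 6 was Prkcif/fPrkczf/f;Villin-CreERT2: both genes of the atypical protein kinases C, PKCλ/ι and PKCζ, were floxed, and a tamoxifen-dependent Cre recombinase was driven by the promoter of villin, a gene of the intestinal epithelium. The medium was Advanced DMEM/F12 supplemented with EGF, Noggin, WNT3A, R-spondin 1 and B27, and RNA was taken 3 days after passage with vehicle (ethanol, 3 libraries, which the labels also describe as wild type) or with 4-OH-Tamoxifen (3 libraries, described as the double knockout). No library received 4-OH-Tamoxifen without the floxed alleles or the Cre, so the loss of the kinases, the activity of Cre and 4-OH-Tamoxifen itself cannot be told apart. Nothing in the labels says that the replicates came from separate animals or cultures, so the p-values measure the spread between these libraries, which may be technical. Each difference is a log2 fold change of 4-OH-Tamoxifen over vehicle from limma, on the log2(normalised count + 1) scale, with its standard error (SE). In these bulk samples, fewer cells of a type and less RNA per cell cannot be told apart.

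The libraries held 15804709 to 26957612 reads. The 101 rows took 1.18%, 1.17% and 1.25% of them with vehicle and 1.17%, 1.17% and 1.14% with 4-OH-Tamoxifen. The summed normalised count of all rows was 19017300 to 19133400 with vehicle and 19906900 to 20304400 with 4-OH-Tamoxifen. Prkcz, a check of the labels, read 879.8, 904 and 954 in vehicle replicates 1, 2 and 3 and 287, 265 and 290.3 in 4-OH-Tamoxifen replicates 1, 2 and 3, and Prkci read 3603, 3526 and 3430 against 2869, 3105 and 3089. The log2 fold changes were -1.70 ± 0.08 (SE) for Prkcz and -0.22 ± 0.05 for Prkci. The Prkci transcript thus kept most of its vehicle level and is a weak check. Epithelial transcripts such as Epcam, Vil1 and Krt8 were abundant in every library. The summed normalised count of 10 colonic epithelium genes ran from 193756 to 201071 with vehicle and from 259011 to 285163 with 4-OH-Tamoxifen. Of the 10, 4 were called higher and 2 lower (60% called, against 43.6% of all rows), with log2 fold changes from -0.43 to 0.92. All 10 proliferation markers (log2 fold changes of -1.02 to -0.49) and 6 of 7 tested markers of crypt base stem cells were lower with 4-OH-Tamoxifen. The 4-OH-Tamoxifen replicates 2 and 3 stood apart in some genes of other cell types. The summed normalised count of 5 plasma cell genes was 0 in the vehicle libraries, 1.03 in 4-OH-Tamoxifen replicate 1, and 211 and 71.7 in replicates 2 and 3. The sum of 6 smooth muscle genes ran from 2.80 to 13.3 in the vehicle libraries and was 14.5, 65.3 and 164 in the treated ones, and the ileal gene Fabp6 read 1.87, 2.13 and 2.42 against 4.13, 124 and 38.7. In other sums 4-OH-Tamoxifen replicate 1 was also above all vehicle libraries. The sum of 10 genes of Paneth cells and ileum ran from 680 to 955 in the vehicle libraries and was 1090, 1982 and 2048 in the treated ones. Of its 9 tested genes, 7 were called higher and none lower (77.8% called, against 43.6% of all rows). Their log2 fold changes ran from 0.37 to 4.47, with a median of 3.70. The sum of 8 striated muscle genes ran from 1613 to 1712 and was 2595, 2808 and 2622. Only 2 of the 8 reached the minimum for a test, and both were called higher. Of the 8, 3 had fewer than 3 reads in total. This sum rests on few genes and does not by itself show muscle cells. The part of these genes of other cell types and of the lower proliferation in the results was not tested. The counts of subunits are given again for 4-OH-Tamoxifen replicate 1 alone.

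The respiratory chain passes electrons from NADH, through complex I, and from succinate, through complex II, to ubiquinone, then through complex III and cytochrome c to complex IV, which reduces oxygen. Complexes I, III and IV pump protons out of the matrix, and ATP synthase uses their return to make ATP. All complexes except complex II combine nuclear-encoded subunits with subunits encoded by mitochondrial DNA. The nuclear genes are read by transcription factors that include NRF1, the ETS-family factor GABP, YY1 and the oestrogen-related receptors, with the PGC-1 coactivators. Colonic epithelial cells oxidise butyrate in their mitochondria.

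Sites for these factors are shown because the regulators themselves are among the results. RefSeq promoters of the mouse build GRCm38.p6, from 250 bases before to 50 bases after each start, were found for 69 of the 101 rows (74 promoters), and 4 motifs were searched on both strands. The NRF1 motif GCGCANGCG was present in 28.38% of the 74 promoters, against 12.81% of the promoters of tested rows and 6.25% of all promoters. Some sites matched it on both strands and were counted once per promoter. It was found in 2 of the 13 promoters of subunits that rose and in 4 of the 8 of subunits that fell, of which 2 are overlapping promoters of Ndufa5 that share 1 site. The YY1 motif AAGATGGCG was in 9.46% (tested rows 2.95%, all promoters 1.4%), the ETS motif CCGGAAGT in 6.76% (8.03%, 3.89%) and the oestrogen-related receptor motif TCAAGGTCA in 2.7% (0.27%, 0.42%). Matches of different motifs overlapped in 0 cases. The windows below run 5′ to 3′ on the strand of the gene, with the match in capitals. Each comes from a subunit that passed the test, 4 that rose and 3 that fell.
Cox6a1, rose, NRF1 motif, chr5:115349102-115349130, minus strand: caggaacgggGCGCATGCGcgctctcgct
Uqcrh, rose, ETS motif, chr4:116075064-116075091, minus strand: agtatgccgcACTTCCGGccaggtcgcc
Atp5j, rose, YY1 motif, chr16:84835046-84835074, minus strand: aagtgtaggaAAGATGGCGgagtcttagc
Atp5g3, rose, oestrogen-related receptor motif, chr2:73911360-73911388, minus strand: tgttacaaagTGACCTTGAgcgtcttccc
Sdha, fell, NRF1 motif, chr13:74350232-74350260, minus strand: gcgactcggtGCGCAAGCGcagtctgtcg
Ndufa5, fell, NRF1 motif, chr6:24527698-24527726, minus strand: tgtgtgagctGCGCAGGCGcaaatctacc
Ndufs7, fell, YY1 motif, chr10:80249463-80249491, plus strand: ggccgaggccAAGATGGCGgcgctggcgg

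The subunits as a whole moved little, and in both directions. Of the 82 tested, 22 (26.8%) passed an adjusted p of 0.05, against 43.6% of all 13210 rows tested. Of these, 15 rose and 7 fell, beside 22.7% and 21.0% of all rows. None of the 22 was past 0.5 in size, whereas 14.2% of all rows were called and past it. The changes that passed ran from -0.22 (Ndufa5, 0.856-fold) to 0.38 (Ndufa4, 1.30-fold). The median was 0.039 over the subunits and -0.005 over all rows, and the median size without sign was 0.097 against 0.21. Replicate values did not overlap between the groups for 25 of the 82 (30.5%), against 52.1% of all rows. The median SE was 0.057 for the subunits and 0.081 for all rows.

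**Figure D1:**
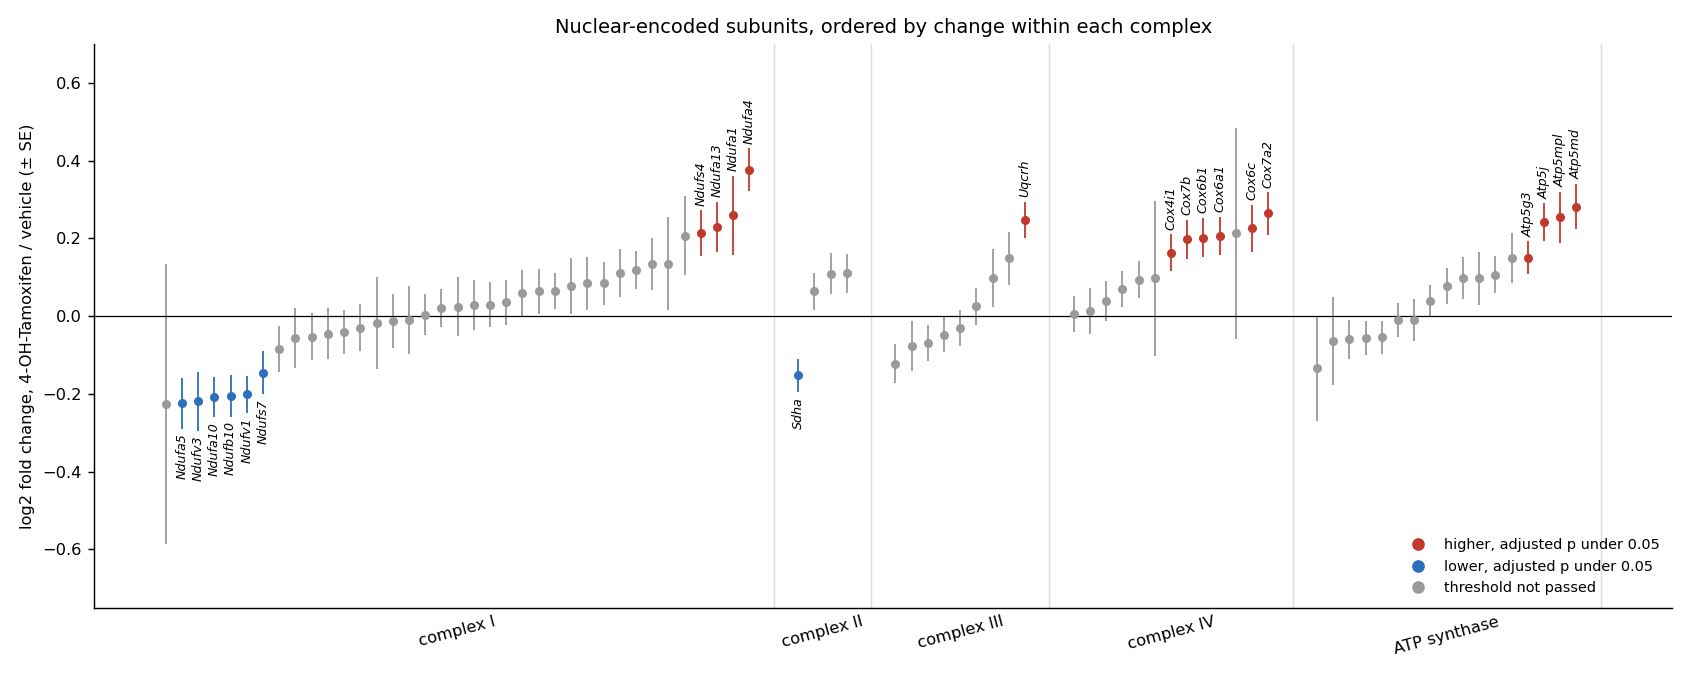
Log2 fold change of each tested subunit (y axis, points with SE bars), ordered by change within each complex along the x axis. Complex IV has 6 red points and no blue one, complex I has 4 red and 6 blue, and no point passes 0.5 in size.

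In complex I, 37 of 42 rows were tested, and 4 rose while 6 fell, with a median of 0.024. The share called was 27.0%, against 43.6% of all rows. It was 10.8% higher and 16.2% lower, beside 22.7% and 21.0% of all rows. Among the 7 core subunits, which carry the flavin and the iron-sulphur clusters from NADH to ubiquinone, 2 fell (28.6%). Ndufv1, the flavoprotein that binds NADH, read 3151, 3205 and 3436 normalised counts in vehicle replicates 1, 2 and 3 and 2832, 2884 and 2795 in 4-OH-Tamoxifen replicates 1, 2 and 3. The groups did not overlap, and the log2 fold change was -0.20 ± 0.05 (SE, adjusted p = 0.00185). Ndufs7, which holds the last iron-sulphur cluster before ubiquinone, read 1628, 1568 and 1753 against 1504, 1533 and 1434, with the highest treated library below the lowest vehicle library by a small margin (log2 fold change -0.15 ± 0.06, adjusted p = 0.0417). It lost its call in 8 of 16 alternative analyses. The core subunits Ndufs1 (-0.041 ± 0.06), Ndufs3 (0.029 ± 0.06), Ndufs8 (-0.084 ± 0.06) and Ndufv2 (-0.053 ± 0.06) did not pass, with log2 fold changes ± SE as given and adjusted p-values from 0.265 to 0.714. Their 95% intervals lay between -0.21 and 0.15, which gives the size of change the fit allows for these 4 transcripts.

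Among the accessory subunits of complex I, Ndufa4 had the largest change. It read 2727, 2636 and 3054 in the vehicle libraries and 3803, 3551 and 3561 in the treated ones, and every treated library was above every vehicle library. The log2 fold change was 0.38 ± 0.05 (SE, adjusted p = 1.22e-05). Although named for complex I, its protein is now counted as a subunit of complex IV. Ndufa13, also known as GRIM-19, read 1309, 1205 and 1468 against 1552, 1520 and 1583 (log2 fold change 0.23 ± 0.06, adjusted p = 0.00639). Vehicle replicate 3 was the closest to the treated group, and without vehicle replicate 2 the call was lost (0.16, adjusted p = 0.0649). Ndufs4, a late-assembled subunit, read 1144, 1131 and 1146 against 1286, 1421 and 1266, with vehicle values close together and all treated values above them (log2 fold change 0.21 ± 0.06, adjusted p = 0.00561). Ndufa1, a small membrane-arm subunit, read 505, 384 and 546 against 599, 533 and 570.3. Its groups overlapped, since vehicle replicate 3 was above 4-OH-Tamoxifen replicate 2, and its log2 fold change was 0.26 ± 0.10 (adjusted p = 0.0452). It lost its call in 5 of 16 alternative analyses, and without vehicle replicate 2 it was at 0.11 (adjusted p = 0.363).

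The accessory subunits that fell did so by similar amounts. Ndufa5, of the hydrophilic arm, read 907, 835 and 922 in the vehicle and 778, 720.4 and 782 in the treated libraries (log2 fold change -0.22 ± 0.07, adjusted p = 0.00926). Ndufa10 read 2203, 2114 and 2366 against 1913, 1911 and 1953 (log2 fold change -0.21 ± 0.05, adjusted p = 0.00284) and Ndufb10, of the membrane arm, 1470, 1510 and 1570 against 1334, 1309 and 1302 (log2 fold change -0.21 ± 0.05, adjusted p = 0.00371). In these 3 genes the groups did not overlap and the treated libraries lay close together. Ndufv3, a small partner of Ndufv1, read 1135, 1178 and 1392 against 1057, 1153 and 969, and here 4-OH-Tamoxifen replicate 2 was above vehicle replicate 1 (log2 fold change -0.22 ± 0.08, adjusted p = 0.0242). Its call was lost in 3 of 16 alternative analyses, with -0.13 (adjusted p = 0.174) without vehicle replicate 3. Ndufb2 had the largest SE among the subunits of the 5 complexes. It was thinly covered, at 30.8, 24.8 and 27.8 against 48.6, 15.5 and 17.1, with 4-OH-Tamoxifen replicate 1 high and the other treated libraries low, and its log2 fold change was -0.23 ± 0.36 (adjusted p = 0.647). Ndufb2 was singled out after its values were seen.

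Complex II, which is also the succinate dehydrogenase of the citric acid cycle, is encoded by 4 nuclear genes. Sdha, the catalytic flavoprotein, fell and was the only call (25% of the 4, against 43.6% of all rows). It read 7699, 7767 and 8285 in the vehicle libraries and 7235, 7049 and 7074 in the treated ones, without overlap (log2 fold change -0.15 ± 0.04, adjusted p = 0.00722). The iron-sulphur subunit Sdhb (0.064 ± 0.05) and the membrane anchors Sdhc (0.11 ± 0.05) and Sdhd (0.11 ± 0.05) did not pass, at adjusted p = 0.294, 0.104 and 0.0811. The anchors read 2522, 2680 and 2817 against 2815, 3057 and 2776 for Sdhc and 3367, 3638 and 3836 against 3951, 3912 and 3824 for Sdhd. In both, vehicle replicate 3 overlapped the treated libraries, and without it Sdhc (0.15, adjusted p = 0.0435) and Sdhd (0.15, adjusted p = 0.0204) were called higher, which took the count for complex II from 1 to 3.

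In complex III, 1 of 9 subunits passed (11.1%, against 43.6% of all rows), and the median was -0.03. Uqcrh, the hinge protein next to cytochrome c1, read 1936, 1965 and 1983 in the vehicle libraries and 2308, 2354 and 2323 in the treated ones. The values within each group lay close together and the groups were well apart (log2 fold change 0.25 ± 0.05, adjusted p = 2.50e-04). The catalytic subunits Cyc1, cytochrome c1 (5216, 4864 and 5152 against 4799, 4946 and 4989), and Uqcrfs1, the Rieske iron-sulphur protein (2963, 3052 and 3103 against 3036, 3255 and 2996), overlapped between the groups. Their log2 fold changes were -0.047 ± 0.04 (adjusted p = 0.413) and 0.026 ± 0.05 (adjusted p = 0.694). With quantile normalisation 4 of the 9 were called and the median was -0.09. Cyc1 was among the genes called lower under that setting, at -0.11 (adjusted p = 0.0392).

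Complex IV, cytochrome c oxidase, was the complex with the largest median, 0.164, although without vehicle replicate 3 its median was 0.11 and that of complex II 0.12. In that setting the thinly covered Cox6b2 went from 0.21 to 0.020 and Cox7a1 from 0.097 to -0.012. The abundant Cox5b went from 0.070 to 0.11 and was the middle value. Of the 17 rows of complex IV, 13 were tested, and all 13 log2 fold changes were above 0. Among them, Cox5a, Cox7a1 and Cox8a changed sign in some alternative analyses (Cox5a and Cox8a with quantile normalisation). Of the 13, 6 rose and none fell, a share of 46.2% called. This was close to the 43.6% of all rows in either direction and above the 22.7% called higher. The summed normalised count of its rows was 36160, 35783 and 38624 in the vehicle libraries and 40298, 41895 and 39433 in the treated ones, without overlap, whereas the sums of the other 4 complexes overlapped between the groups. Cox7a2 read 1331, 1380 and 1340 against 1584, 1715 and 1570 (log2 fold change 0.26 ± 0.05, adjusted p = 5.42e-04). It encodes the widely expressed isoform of subunit VIIa. Cox6c read 1782, 1865 and 2040 against 2175, 2394 and 2083 (log2 fold change 0.23 ± 0.06, adjusted p = 0.00468) and Cox6a1, the widely expressed isoform of subunit VIa, 8536, 8129 and 8892 against 9664, 10519 and 9306 (log2 fold change 0.21 ± 0.05, adjusted p = 0.00211). In all 3, 4-OH-Tamoxifen replicate 2 was the highest library. With quantile normalisation Cox6a1 was at 0.11 and lost its call (adjusted p = 0.0832).

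The other 3 that rose were Cox6b1 (0.20 ± 0.05), Cox7b (0.20 ± 0.05) and Cox4i1 (0.16 ± 0.05), with adjusted p = 0.00276, 0.0035 and 0.00767. Cox6b1 bridges the monomers of the oxidase on the outer face. Cox4i1, the widely expressed isoform of subunit IV, an early partner in assembly, read 4766, 4936 and 5275 against 5576, 5754 and 5434, and its call was lost in 3 of 16 alternative analyses. The groups did not overlap in any of the 6. Cox5a (1504, 1492 and 1642 against 1681, 1477 and 1525) and Cox5b (3624, 3521 and 3880 against 3885, 3818 and 3865), both of the early core, and Cox8a (4836, 4803 and 5227 against 4887, 5026 and 5002) overlapped, with log2 fold changes of 0.013 ± 0.06, 0.070 ± 0.05 and 0.0057 ± 0.05 and adjusted p-values of 0.877, 0.239 and 0.933. Cox7a2l, a factor that joins complexes III and IV, read 2401, 2306 and 2334 against 2483, 2568 and 2463. All treated values were above the vehicle values, but the adjusted p was 0.116. Counted with Ndufa4, complex IV had 7 of 14 called higher and a median of 0.18, and complex I without it had 3 higher and 6 lower of 36.

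**Figure D2:**
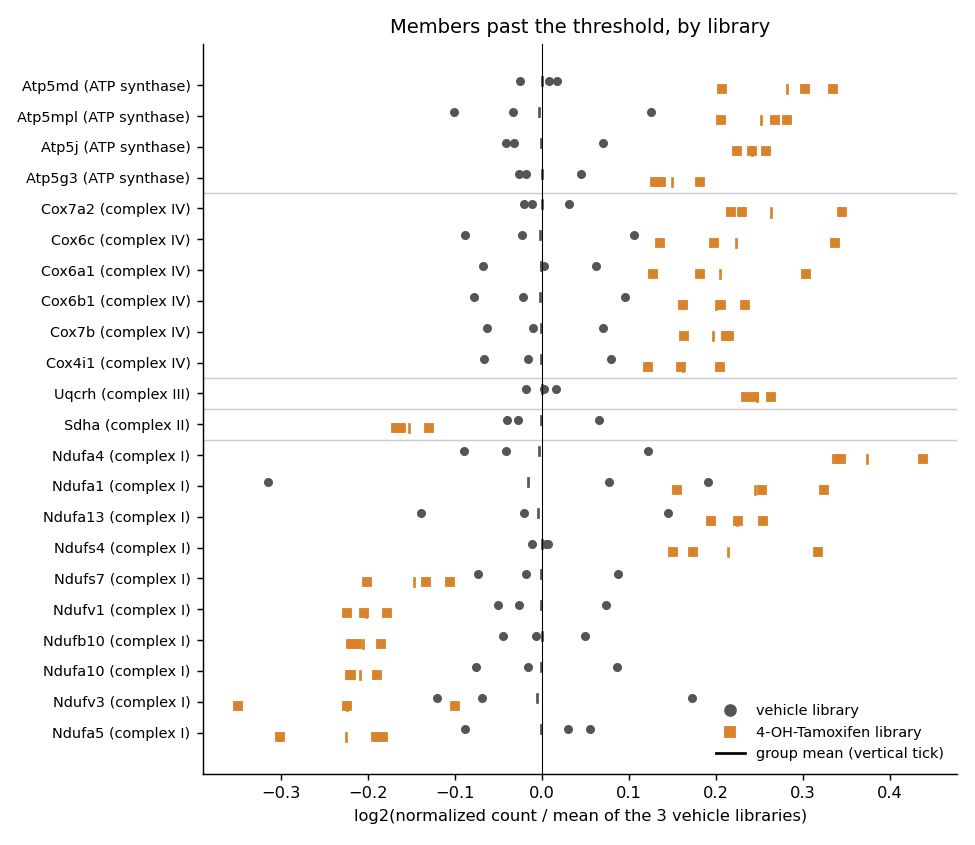
Each of the 22 subunits that passed the test (y axis), as the log2 of its normalised count over the mean of the 3 vehicle libraries (x axis), with circles for vehicle, squares for 4-OH-Tamoxifen and ticks for the group means. The groups are apart in 20 of the 22 and overlap in Ndufa1 and Ndufv3, and in Ndufa4 the treated libraries lie farthest to the right.

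Isoforms that mark muscle, lung, testis or low oxygen were scarce. The muscle and heart isoform Cox7a1 read 59.7, 62.4 and 48.4 against 52.7, 68.4 and 61.5 and the testis isoform Cox6b2 28.9, 37.6 and 21.8 against 32, 32.1 and 36.4, without a call (adjusted p = 0.725 and 0.561). Cox4i2 of lung and low oxygen stayed at or under 4.55, the muscle isoform Cox6a2 at or under 1.87 and the testis isoform Cox7b2 at or under 1.14, and none of them was tested. Cox8b and Cox8c had no row in the table used here. Ndufa4l2, a paralog of Ndufa4 that is induced in low oxygen, read 6.53, 4.26 and 8.47 against 1.03, 1.04 and 0. The groups did not overlap, but the gene was below the minimum for a test. It had 6 to 7 reads in each vehicle library and 0 to 1 in each treated library.

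For ATP synthase, all 17 rows were tested, 4 rose and none fell, and the median was 0.077. The share called higher was 23.5%, close to the 22.7% of all rows called higher and below the 43.6% called in either direction. The main subunits of the catalytic head did not pass the test. Atp5b, the beta subunit, read 34333, 34795 and 36374 in the vehicle and 34105, 34435 and 32942 in the treated libraries (log2 fold change -0.056 ± 0.04, adjusted p = 0.317), and Atp5a1, the alpha subunit, 27581, 27804 and 28992 against 27340, 27041 and 26841 (-0.055 ± 0.04, adjusted p = 0.309). In Atp5a1 the treated values were all below the vehicle values. With quantile normalisation both were called lower, at -0.23 for Atp5a1 (adjusted p = 1.24e-04) and -0.26 for Atp5b (adjusted p = 5.42e-05).

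The subunits of ATP synthase that rose belong to the membrane part and the stalk. Atp5md, a small subunit of the membrane part that is also called DAPIT, read 953, 975 and 982 against 1196, 1224 and 1120 (log2 fold change 0.28 ± 0.06, adjusted p = 5.73e-04). Atp5mpl, a small proteolipid of the same part, read 854, 814 and 953 against 1052, 1062 and 1007 (log2 fold change 0.25 ± 0.07, adjusted p = 0.00374), and Atp5j, coupling factor 6 of the stalk, 2457, 2442 and 2638 against 2969, 3004 and 2936 (log2 fold change 0.24 ± 0.05, adjusted p = 3.54e-04). In each of these the groups did not overlap. Subunit c, which forms the rotating ring, is encoded by 3 genes with one mature protein. Atp5g3 rose, from 5336, 5366 and 5606 to 6168, 5979 and 5947 (log2 fold change 0.15 ± 0.04, adjusted p = 0.00752), but lost its call with quantile normalisation, at 0.072 (adjusted p = 0.18). Atp5g1 read 2980, 2976 and 3389 against 3071, 3218 and 2980 and Atp5g2 2738, 2718 and 3013 against 2694, 2683 and 2743, with no call (adjusted p = 0.904 and 0.359). Whether Atp5g3 differed from the other 2 in its change was not tested. The inhibitor of ATP hydrolysis, listed as Atpif1, lay outside the rule and read 287, 326 and 333 against 364, 336 and 331, also without a call (0.13 ± 0.09, adjusted p = 0.294).

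The medians of each complex in each library show how these shifts stand against the spread between replicates. Vehicle replicate 3 was the highest vehicle library for all 5 complexes, with medians of 0.062 to 0.073 above the vehicle mean, and also for mitochondrial (0.087) and cytosolic (0.077) ribosomal proteins. The treated libraries were at 0.15, 0.21 and 0.12 for complex IV, above all vehicle libraries. For ATP synthase they were at 0.032, 0.097 and 0.036 and for complex II at 0.055, 0.11 and 0.059, with 1 treated library above all vehicle libraries in each. For complexes I and III they lay within the range of the vehicle libraries. Without vehicle replicate 3, 26 of the 82 subunits were called, 21 higher and 5 lower, with 39.1% of all rows called. Without each of the other libraries 19 to 23 subunits were called, with 37.4% to 42.6% of all rows. The 78 tested mitochondrial ribosomal proteins, nuclear-encoded like the subunits, had 5 higher and 14 lower (24.4% called, median -0.035), and the 75 cytosolic ribosomal proteins 3 higher and 9 lower (16%, median -0.027). The differences between these groups of genes were not tested.

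**Figure D3:**
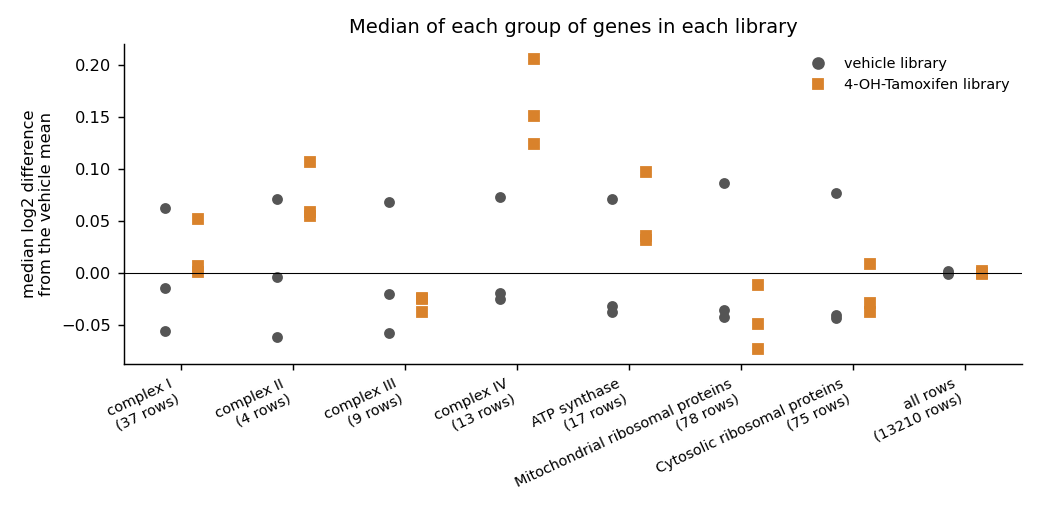
Median log2 difference from the vehicle mean (y axis) over the tested rows of each group of genes (x axis), with 1 point per library, circles for vehicle and squares for 4-OH-Tamoxifen. In complex IV the treated libraries (0.12 to 0.21) lie above all vehicle libraries, while in the other groups vehicle replicate 3 lies among or above the treated ones.

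Per kilobase of transcript, the subunits differed widely in level within and between complexes. Transcript lengths from the GENCODE vM21 annotation of GRCm38, another build than the GRCm39 of the submitters' processing notes, were found for 77 of the 82 tested rows. Vehicle means reached 18355 normalised counts per kilobase for Atp5b, 14919 for Cox6a1 and 11382 for Atp5a1, whereas Ndufs1 was at 673, Sdhc at 843 and Sdha at 2730. Some transcripts resemble those of other genes, at low and at high levels. Atp5l, at 404 per kilobase, shared 84.8% of its 50-base stretches with other genes, and Atp5o, at 163, shared 50.3%. For 18 of the 77, including Atp5g2 (100%, 6402 per kilobase), Cox7c (53%, 4604), Atp5h (50.5%, 4104), Ndufs3 (39.7%) and Cox5a (32%), at least 20% was shared, so their counts are uncertain, and 2 of the 18 were called, Ndufa13 (28.5%) and Cox6c (21.1%).

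The called subunits also differed in transcript length. The median length was 638.5 bases for 14 of the 15 that rose, 1582 for the 7 that fell and 849.5 for 56 that did not pass. Of 37 subunits of up to 750 bases, 10 rose and 1 fell, while of 14 subunits of over 1500 and up to 3000 bases 1 rose and 4 fell. Among all tested rows, 16% of those up to 750 bases were called higher and 8.6% lower, and of those from 1500 to 3000 bases 25.3% and 18.9%. Across the 77 subunits the correlation of the log2 fold change with log length was r = -0.35 and rho = -0.34, and across 12906 tested rows r = -0.08 and rho = -0.093. These are descriptions across genes, which share the 6 libraries and are not independent replicates. The part of length in the changes was not tested.

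**Figure D4:**
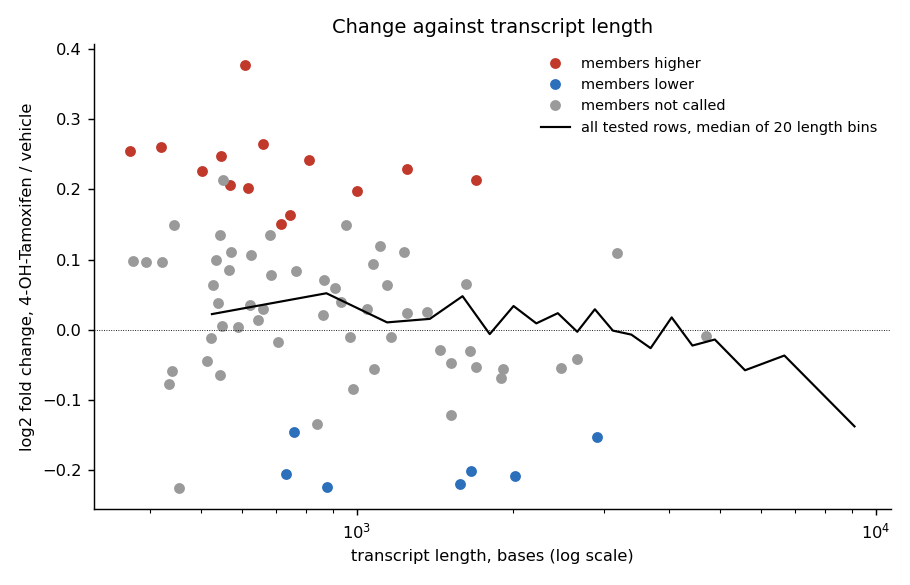
Log2 fold change of each subunit (y axis) against transcript length in bases (x axis, log scale), coloured by call, with a line for the median of all tested rows in 20 length bins. The subunits that rose are mostly short (median 638.5 bases) and those that fell longer (median 1582 bases), while the line stays between -0.14 and 0.05.

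The assembly factors, which build the complexes without remaining in them, showed few changes. Of 54 tested in 5 lists, 4 rose and 9 fell (24.1% called, against 43.6% of all rows). For complex I, 3 of 17 fell and none rose. These were Ndufaf6 (192, 177 and 196 against 142, 155 and 150.3, log2 fold change -0.33 ± 0.12, adjusted p = 0.028), Tmem186 (-0.33 ± 0.08, 0.00286) and Foxred1 (-0.31 ± 0.08, 0.00486), whereas the other 7 tested Ndufaf genes did not pass. Ndufaf6 lost its call in 7 of 16 alternative analyses, and without 4-OH-Tamoxifen replicate 2 the list had 5 calls. For complex II, 0 of 4 passed. For complex III, Bcs1l, which inserts the Rieske protein, fell from 282, 268 and 321 to 192, 227 and 188 (log2 fold change -0.52 ± 0.11, adjusted p = 7.72e-04), and Uqcc2, needed for cytochrome b, rose (0.22 ± 0.08, adjusted p = 0.0217) but lost its call in 4 of 16. For complex IV, 3 of 23 rose and 4 fell, among them Coa8 (-0.43 ± 0.09, adjusted p = 8.97e-04), Cmc2 (-0.35 ± 0.12, 0.0234) and Pet100, which rose (0.34 ± 0.13, 0.0441). The remaining calls are given after their values were seen. Higd2a (0.32 ± 0.06, 7.89e-05) and Cox19 (0.25 ± 0.09, 0.0287) rose. Cox10 (-0.25 ± 0.09, 0.0255) and Higd1a (-0.22 ± 0.06, 0.00535) fell, and Higd1a shares 36.6% of its 50-base stretches with other genes. The groups were apart in each of these. Cmc2 and Pet100 each lost the call in 5 of 16 alternatives, Pet100 was at 0.17 (adjusted p = 0.292) without vehicle replicate 1 and shares 71.3% of its 50-base stretches with another gene, and the list had 4 calls without vehicle replicate 2. Of the 4 factors of ATP synthase, 1 fell, Fmc1 (-0.31 ± 0.12, adjusted p = 0.0434), which was singled out as the only call of its list. Its groups overlapped, and the list had 0 calls without vehicle replicate 1 or 3 or 4-OH-Tamoxifen replicate 2 or 3, and 2 without vehicle replicate 2.

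The electron carriers and the enzymes that feed ubiquinone had 2 higher and 4 lower of 18 (33.3% called, against 43.6% of all rows), and 3 calls without 4-OH-Tamoxifen replicate 3. The genes that rose, given here after their values were seen, were Sqor, which oxidises sulphide and passes the electrons to ubiquinone (4973, 5279 and 5553 against 6450, 6546 and 5997, log2 fold change 0.27 ± 0.05, adjusted p = 1.91e-04), and Cycs, cytochrome c (2752, 2767 and 2953 against 2845, 3334 and 3190, 0.14 ± 0.06, adjusted p = 0.0447). The groups were apart for Sqor and overlapped for Cycs, of which 28.5% of the 50-base stretches are shared with other genes. Dhodh, the mitochondrial enzyme of pyrimidine synthesis that passes electrons to ubiquinone, fell from 387, 414 and 406 to 295, 258 and 319.9 (log2 fold change -0.47 ± 0.09, adjusted p = 4.35e-04). The ubiquinone synthesis genes Coq5 (-0.36 ± 0.07, adjusted p = 2.18e-04) and Pdss1 (-0.29 ± 0.10, adjusted p = 0.0263) fell as well, as did Coq6, the remaining call among them, and 8 of the 11 tested genes of ubiquinone synthesis did not pass. The call of Pdss1 was lost in 4 of 16 alternative analyses.

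The subunits encoded by mitochondrial DNA had 4 higher and none lower of 10 tested (40% called), with a median of 0.14, beside 43.6% of all rows called and 22.7% called higher. Without vehicle replicate 1 or 3 or 4-OH-Tamoxifen replicate 2 or 3, 2 were called. The call was higher for mt-Nd4 of complex I, which read 9605, 10526 and 10256 against 12467, 12811 and 12284 (log2 fold change 0.31 ± 0.04, adjusted p = 1.18e-05). It was higher for mt-Cytb, cytochrome b of complex III, at 40234, 44409 and 46226 against 55432, 52278 and 52535 (log2 fold change 0.29 ± 0.05, adjusted p = 1.02e-04). In both, all treated libraries were above all vehicle libraries. A smaller difference was called for mt-Nd6 (0.13 ± 0.05, adjusted p = 0.0437), which lost its call in 11 of 16 alternative analyses. The fourth call was mt-Co1 of complex IV, whose groups overlapped (0.15 ± 0.05, adjusted p = 0.0314). Of the 50-base stretches, 62.2% of mt-Nd4, 51.1% of mt-Co1, 100% of mt-Co2, 99.9% of mt-Co3 and 99.5% of mt-Atp6 are shared with other genes, so the counts of these 5 and the median are uncertain, while mt-Cytb and mt-Nd6 shared 0%. Together the 13 mitochondrially encoded genes took 1.65%, 1.80% and 1.70% of all reads with vehicle and 1.80%, 1.82% and 1.81% with 4-OH-Tamoxifen.

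The genes that read and maintain mitochondrial DNA had more calls in the lower direction, with 1 higher and 7 lower of 15 tested, a median of -0.20 and 53.3% called, beside 43.6% of all rows called and 21.0% called lower. Lonp1, the matrix protease that also binds mitochondrial DNA, fell from 7044, 6923 and 6633 to 3958, 4302 and 4215 (log2 fold change -0.72 ± 0.05, adjusted p = 2.69e-10), the largest change of this list. Top1mt, the mitochondrial topoisomerase, read 266, 266 and 309.9 against 209.7, 229 and 197 (log2 fold change -0.40 ± 0.11, adjusted p = 0.00468), and Twnk, the replicative helicase, 666, 643 and 715 against 569, 481 and 558 (log2 fold change -0.33 ± 0.08, adjusted p = 0.00176). In all 3 the treated libraries were below the vehicle libraries.

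Of the 14 tested transcriptional regulators of mitochondrial genes, 3 rose and 6 fell (64.3% called, beside 43.6% of all rows, 22.7% higher and 21.0% lower). Ppargc1a, which encodes the coactivator PGC-1α, read 112, 123 and 119 against 83.7, 63.2 and 64.9 (log2 fold change -0.74 ± 0.16, adjusted p = 0.00101). Its relative Ppargc1b read 323, 336 and 286 against 242, 159.6 and 188 (-0.70 ± 0.13, adjusted p = 1.93e-04), and Pprc1, the third of the family, also fell (-0.40 ± 0.06, adjusted p = 2.10e-05). In 4-OH-Tamoxifen replicate 1 both Ppargc1a and Ppargc1b stood closer to the vehicle libraries than in replicates 2 and 3, and with that library alone against vehicle neither passed, at -0.49 for Ppargc1a (adjusted p = 0.0881) and -0.38 for Ppargc1b (adjusted p = 0.0626). Hcfc1, a cofactor of several promoter-binding factors, fell from 4531, 4419 and 4536 to 3424, 2838 and 3327 (log2 fold change -0.50 ± 0.06, adjusted p = 7.96e-07).

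The factors that bind the motifs printed above did not share a direction. For NRF1, the gene Nrf1 read 1108, 1023 and 1041 against 975, 1058 and 996, with overlap (-0.066 ± 0.06, adjusted p = 0.4). Of the GABP subunits, the DNA-binding Gabpa (-0.11 ± 0.06, adjusted p = 0.123) and the partner Gabpb1 (0.079 ± 0.08, adjusted p = 0.434) did not pass, and Gabpb2 fell from 2232, 2344 and 2408 to 1653, 1541 and 1783 (-0.49 ± 0.06, adjusted p = 7.98e-07). Yy1 rose slightly (0.14 ± 0.05, adjusted p = 0.0374) and lost its call in 7 of 16 alternative analyses. Esrra, the oestrogen-related receptor alpha, rose from 2806, 2696 and 2827 to 3233, 3439 and 3262 (0.25 ± 0.05, adjusted p = 1.79e-04), and Perm1, a muscle regulator that acts with it, from 83, 67.4 and 61.7 to 104, 126 and 102 (0.65 ± 0.17, adjusted p = 0.00422). Hif1a fell slightly (-0.17 ± 0.07, adjusted p = 0.0434) but lost its call in 6 of 16 alternatives, with -0.11 (adjusted p = 0.234) without 4-OH-Tamoxifen replicate 3, while Myc (0.081 ± 0.04, adjusted p = 0.148) and Nrip1 (0.0044 ± 0.07, adjusted p = 0.967) did not pass.

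**Figure D5:**
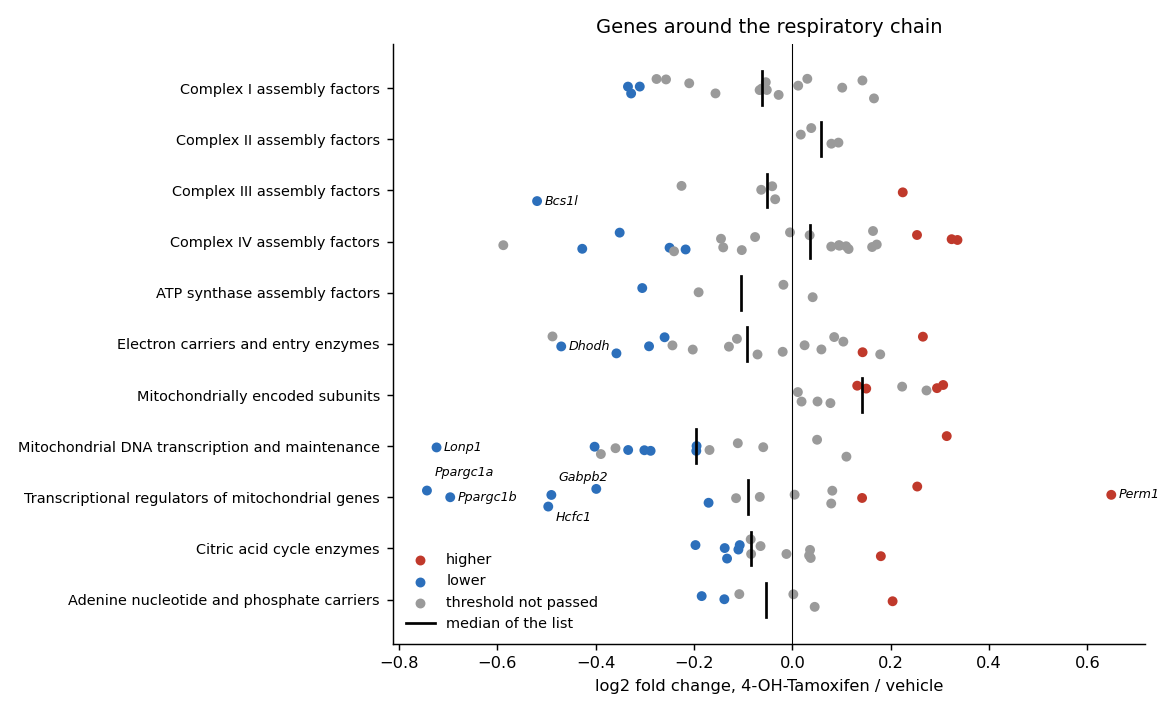
Log2 fold change (x axis) of the tested genes of each of 11 lists (y axis), 1 point per gene, with a black line at the median of each list. Lonp1, Ppargc1a and Ppargc1b lie farthest to the left (-0.74 to -0.70) and Perm1 farthest to the right (0.65).

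The citric acid cycle enzymes, which supply the chain with NADH and succinate, had 1 higher and 5 lower of 13 (46.2% called, against 43.6% of all rows), with a median of -0.08. This count was not stable, with 2 to 4 calls when any 1 library was left out (2 without vehicle replicate 1 or 3 or 4-OH-Tamoxifen replicate 3). The largest changes without overlap were those of Idh3a (3278, 3406 and 3470 against 3036, 2993 and 2829, log2 fold change -0.20 ± 0.05, adjusted p = 0.00204) and Idh3b (-0.14 ± 0.05, adjusted p = 0.0216), subunits of the NAD-dependent isocitrate dehydrogenase, and of Sucla2, which rose (0.18 ± 0.06, adjusted p = 0.0184). Idh3b and Sucla2 each lost the call in 4 of 16 alternatives. Of 6 tested carriers and channels for adenine nucleotides and phosphate, 3 were called (50%, against 43.6% of all rows). Vdac3 rose (0.20 ± 0.05, adjusted p = 0.0027). The outer membrane channel Vdac1 (-0.18 ± 0.04, adjusted p = 0.00151) and the nucleotide translocase Slc25a5 (-0.14 ± 0.04, adjusted p = 0.00967) fell. Of their 50-base stretches, 53.5% of Vdac3 and 46.6% of Slc25a5 are shared with other genes, so their counts are uncertain.

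The split of the calls depended on the scaling. With quantile normalisation 12 subunits were higher and 12 lower, in place of 15 and 7, with 19 calls shared and 43.1% of all rows called. Against vehicle, 4-OH-Tamoxifen replicate 1 alone gave 9 higher and 3 lower, with 27.0% of all rows called, and 11 of these 12 were among the 22. Its medians were 0.15 for complex IV and 0.032 for ATP synthase, and 4 subunits of complex IV were called.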

How the data were processed

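RNA of 6 organoid libraries (3 vehicle, 3 4-OH-Tamoxifen) was sequenced, and groups were taken from the treatment label. The deposited values are normalised counts, a signal in which the authors divided the reads of each gene by 1 size factor per library, with no correction for length. The submitters' processing notes list STAR, DESeq2 and GRCm39 (mm39) without versions or roles. The counting tool, annotation and strand setting are not given in the sources used here. All values (100%) were whole multiples of 1 read within 0.1, so whole reads were recovered. Libraries of a group differed by 3.55 to 6.41 times the variance of counting alone (chi-square per degree of freedom), so none is a copy. A total of 3 reads was taken as a floor, for counting error only.

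The log2(normalised count + 1) of the 13210 rows with a mean of at least 10 was compared by limma-trend (limma 3.58.1, R 4.3.3), with Benjamini-Hochberg adjustment over all these rows and a threshold of 0.05. The fit was also run on simulated counts with few changed rows, which cannot show how the scaling affects the calls in these data. The members, gene lists and the rule for named genes were chosen with earlier results of these data known. Named were the core subunits, the tissue isoforms, Prkci and Prkcz, all tested regulators, and up to 3 called genes per complex or list with the largest change and groups apart. Other called members were added. One gene named by the rule is not reported here. Alternatives were pseudocounts of 0.1 and 10, no filter, a mean of at least 50, TMM factors, quantile normalisation, the replicate block, each library left out, edgeR 4.0.16 and DESeq2 1.42.0 on whole reads, and, chosen after seeing the data, 4-OH-Tamoxifen replicate 1 alone against vehicle. The NRF1 and YY1 motifs were each shortened by 1 base at the 3′ end after the longer forms had been searched and their matches seen, and the shorter forms matched more promoters, including 1 more of those of subunits that fell for NRF1.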

Additional observations from a re-analysis of the deposited data

How the results depend on the processing

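The other settings kept the number of called subunits within 1.5 times 22 except when 4-OH-Tamoxifen replicate 1 alone was set against vehicle, which assumes that this single library varies like the vehicle ones. There 12 subunits were called (9 higher, 3 lower; complex I 3, complex II 0, complex III 2), with 20 genes of the 11 lists and 3569 of all rows. Quantile normalisation gave 12 lower subunits, 4 calls in complex III and medians of 0.031 for complex II, -0.094 for complex III, 0.11 for complex IV and 0.00068 for ATP synthase. TMM factors gave 2 calls in complex III. Leaving out 1 library gave 19 to 26 called subunits (13 to 21 higher, 5 to 8 lower), with 37.4% to 42.6% of all rows called. It gave 1 to 3 calls in complex II and 1 to 2 in complex III. The medians ran from 0.11 to 0.19 for complex IV and from -0.059 to 0.013 for complex III. Same-numbered libraries correlated by -0.0074, 0.03 and -0.02 in their deviations from the group means. With so few libraries this cannot show whether the cultures were split in pairs. With the replicate block 22 subunits were called (16 higher, 6 lower), with 2 in complex III and 5637 of all rows.

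Of 1295 values for 81 named genes under the alternatives, 1165 kept direction and side of the threshold, 95 lost the call, 5 gained one and 30 changed sign, none of the last among called genes. With quantile normalisation the values were -6.27e-05 for Ndufs3, -0.0195 for Uqcrfs1, -0.028 for Cox5a, -0.057 for Cox8a and -0.045 for Nrip1, which was at -0.000188 with TMM factors and -0.000202 with edgeR. With 4-OH-Tamoxifen replicate 1 alone they were 0.038 for Ndufs1, -0.018 for Ndufs3, -0.0011 for Uqcrfs1, -0.099 for Cox7a1, -0.019 for Cox8a and -0.066 for Gabpb1. Over the libraries left out in turn, Ndufs1 ran from -0.081 to 0.013, Ndufs3 from -0.0101 to 0.079, Ndufv2 from -0.10 to 0.0052, Uqcrfs1 from -0.011 to 0.049, Cox5a from -0.041 to 0.057, Cox7a1 from -0.012 to 0.20, Cox8a from -0.016 to 0.045, Atp5g1 from -0.041 to 0.053 and Nrip1 from -0.0704 to 0.094. The cause was not tested. Thinly covered genes such as Ndufb2 and Cox6b2 carry intervals wider than the changes seen in the abundant subunits.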
